A study of Mus musculus with 16 samples.

Results

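The genes described here are 9 markers of T and B lymphocytes, Cd2, Cd3d, Cd3e, Cd3g, Cd4, Cd8a and Cd8b1 of T cells and Cd79a and Cd79b of B cells. They were followed through 16 mouse tumors by every probe set annotated to 1 of these symbols alone. That gave 11 of the 22626 probe sets tested and 9 of 12393 genes, since Cd4 and Cd8a each had a pair of probe sets. All 16 tumors arose in mice with the alleles p53R172H∆g/+ and K-rasLA1/+, a mutant p53 allele and a latent oncogenic K-ras allele that is switched on by sporadic recombination. They comprised 2 metastases of the mediastinal lymph node (mice 3 and 4) and 7 metastases at other sites. The other sites were a subcutaneous tumor of the body wall, a liver and an inguinal metastasis of mouse 1, a liver metastasis of mouse 2, a subcutaneous and a heart metastasis of mouse 3 and a nodule of the parietal pleura of mouse 4. They were set against 7 primary lung adenocarcinomas, 4 from the same mice 1 to 4 and 3 from mice 5 to 7, from which no metastasis was profiled. The labels do not say whether the inguinal metastasis lay in a lymph node, and it was kept with the other sites. The paper lists the metastases of mouse 1 as 1 liver and 2 body wall tumors, and none as a lymph node metastasis. Mouse 6 was female and the rest were male, ages were not given in the sources used here, and no tumor without the 2 alleles and no normal tissue was part of the comparison. Each tumor was dissected from adjacent tissue and hybridized once as bulk RNA, so fewer lymphocytes and less marker RNA per lymphocyte cannot be told apart.

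T cells recognize antigen through the T cell receptor, which signals only through the invariant CD3 chains bound to it. CD4 and CD8 are coreceptors that bind the major histocompatibility complex of class II and class I. CD2 is an adhesion molecule of lymphocytes that is not restricted to T cells, and Cd2 is counted here with the T cell genes. B cells recognize antigen through membrane immunoglobulin, which signals through the Igα and Igβ chains encoded by Cd79a and Cd79b. Lymph nodes hold dense zones of both cell types.

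Intensities are dChip model values on a linear scale, whose median over all probe sets and tumors was 79.4 and whose 25th percentile was 24.3. The array medians lay between 75.0 and 85.5, and arrays correlated with each other at 0.900 to 0.969. Most T cell probe sets were dim on this scale. Cd2, Cd3d, Cd3e, Cd4 and Cd8b1 averaged under the 25th percentile over the 16 tumors, as did 23.8% of all probe sets. Cd3g averaged 45.7 and the brighter Cd8a probe set 61.7, and that Cd8a probe set was above the 25th percentile in 16 of 16 tumors. The B cell probe sets Cd79a (mean 106) and Cd79b (mean 81.3) were also above it in all 16 tumors. Values of different probe sets depend on probe affinity and are not compared with each other.

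**Figure D1:**
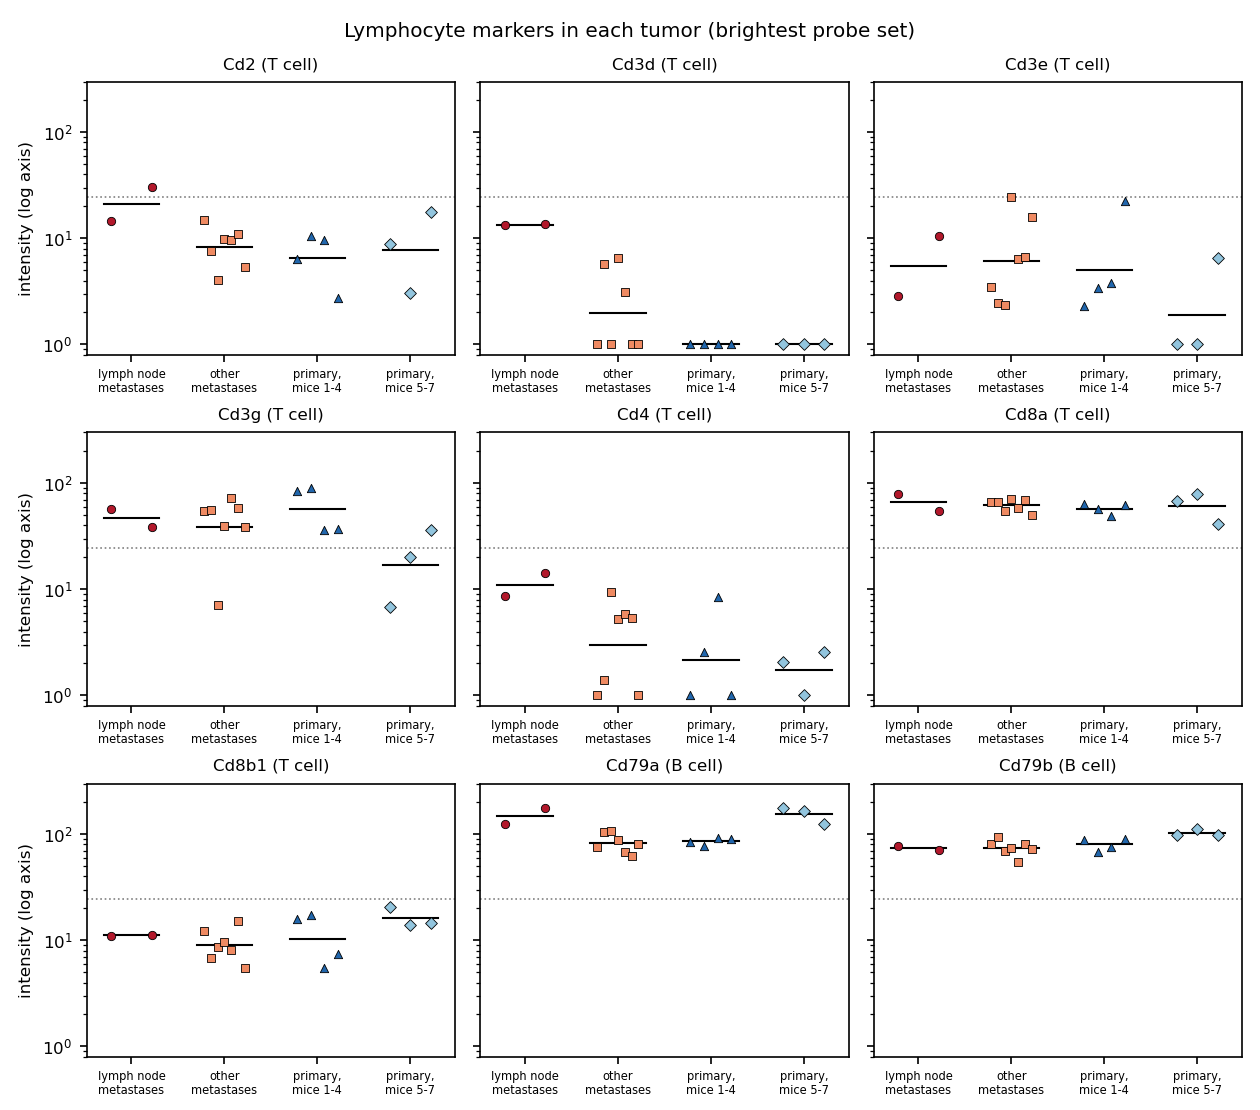
Intensity of the 9 markers in each tumor on a log axis, at the brighter probe set of each gene, for lymph node metastases, other metastases, the matched primary tumors of mice 1 to 4 and the primary tumors of mice 5 to 7. Points are single tumors, horizontal bars are geometric means and the dotted line is the 25th percentile of all values (24.3). The Cd3d points of both lymph node metastases (13.2 and 13.6) lie above every other tumor.

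Cd3d gave the clearest separation of the lymph node metastases. Cd3d encodes the CD3 delta chain. Its intensity was 13.2 in the lymph node metastasis of mouse 4 and 13.6 in that of mouse 3. Among the other metastases it was 6.49 in the liver of mouse 1, 5.74 in the pleura of mouse 4 and 3.11 in the inguinal tumor of mouse 1, and it was at 1, the lowest value used, in the remaining 4. All 7 primary tumors were at 1. Both lymph node metastases thus lay above all 14 other tumors, which 1.23% of all probe sets did. The log2 difference, lymph node minus other metastases, was 2.77 (SE 0.78, limma, adjusted p = 0.457), so it did not pass an adjusted p of 0.05. With values raised to the 10th percentile of all values (5.54) it was 1.25 and passed (limma, adjusted p = 0.00203). Outside the lymph nodes, only the liver metastasis of mouse 1 and the pleural nodule of mouse 4 then exceeded the floor, by little. Raising values to the floor thus removed most of the spread that the test uses. With values raised to the 25th percentile (24.3) all tumors were at the floor and no difference remained, so the call depends on the floor on low values.

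The other chains of the CD3 complex did not separate the lymph node metastases. Cd3g (CD3 gamma) had intensities of 57.2 and 38.2 in the lymph node metastases of mice 4 and 3. In the other metastases it lay between 7.04 (subcutaneous, mouse 3) and 71.8 (inguinal, mouse 1), with a median of 54.8, which spans both lymph node values. The log2 difference was 0.47 with a 95% interval of −1.03 to 1.96 (adjusted p = 0.860). Cd3e (CD3 epsilon) was at 2.85 and 10.4 in the lymph node metastases of mice 4 and 3, against 2.35 to 24.4 in the other metastases, whose highest value was the liver metastasis of mouse 1. Its log2 difference was 0.05 with an interval of −2.30 to 2.41 (adjusted p = 0.996).

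The 3 CD3 genes are neighbors on chromosome 9, and Cd3d and Cd3g are transcribed away from each other. The start sites of their promoter sequences are 1355 bases apart. RefSeq promoter sequences (GRCm38.p6) were matched for 5 of the 9 markers, Cd3d, Cd3e, Cd3g, Cd8a and Cd79a. Shown are the 250 bases before the start site of the promoter sequence for Cd3d, Cd3g and Cd79a. Cd3d and Cd79a separated the lymph node metastases from the other metastases, and Cd3g, the divergent neighbor of Cd3d, did not. The windows lie at chr9:44981536-44981785 (Cd3d, plus strand), chr9:44980432-44980681 (Cd3g, minus strand) and chr7:24897247-24897496 (Cd79a, plus strand). Each is printed 5′ to 3′ on the strand of its gene, with the ETS core GGAA or its reverse complement TTCC in capitals.
Cd3d: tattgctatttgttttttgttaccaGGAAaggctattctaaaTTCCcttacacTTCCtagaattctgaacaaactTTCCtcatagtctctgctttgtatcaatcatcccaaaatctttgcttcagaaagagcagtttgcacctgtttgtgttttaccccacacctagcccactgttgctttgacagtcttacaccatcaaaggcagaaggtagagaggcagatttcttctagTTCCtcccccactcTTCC
Cd3g: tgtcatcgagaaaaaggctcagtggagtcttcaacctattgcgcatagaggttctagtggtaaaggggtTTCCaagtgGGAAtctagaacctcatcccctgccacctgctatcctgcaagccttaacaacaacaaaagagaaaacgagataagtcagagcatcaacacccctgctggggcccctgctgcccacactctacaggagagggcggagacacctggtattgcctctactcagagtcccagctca
Cd79a: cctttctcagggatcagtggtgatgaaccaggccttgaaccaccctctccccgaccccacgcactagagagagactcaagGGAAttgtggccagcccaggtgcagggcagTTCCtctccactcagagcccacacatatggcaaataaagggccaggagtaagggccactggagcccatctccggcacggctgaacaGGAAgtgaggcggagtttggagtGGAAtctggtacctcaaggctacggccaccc
The ETS core occurred 6 times in the Cd3d window, 2 times in that of Cd3g and 4 times in that of Cd79a. In the matched windows of Cd8a and Cd3e, which did not separate the lymph node metastases, it occurred 6 and 5 times. Its count thus did not follow the separation. Of 32851 promoter windows of this length, 93.4% hold it at least once on either strand. The annotated range of the Cd3d gene begins at 44981769, inside its window, so the TTCC at the end of that window lies within the gene. The E-box CAGNTG, read on both strands, occurred 1 time before Cd3d, 2 times before Cd3g and 1 time before Cd79a, against 44.8% of all windows with at least 1. The EBF core CCCNNGGG and the RUNX motif TGTGGT (both strands, 11.8% and 14% of all windows) were not found in any of the 5 matched windows. These matches describe letters and not binding.

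Cd2 was high in 1 lymph node metastasis. Its intensity was 30.4 in the lymph node metastasis of mouse 3 and 14.7 in that of mouse 4. The other metastases lay between 4.03 (subcutaneous, mouse 3) and 14.7 (body wall, mouse 1), with a median of 9.67. The lymph node metastasis of mouse 4 and the body wall tumor of mouse 1 could not be told apart, so the groups met. The log2 difference was 1.79 (SE 0.50, limma, adjusted p = 0.449). Without the lymph node metastasis of mouse 4 it was 2.85 and passed the threshold (adjusted p = 0.0276), with the single remaining node assumed to vary like the other tumors. Without the lymph node metastasis of mouse 3 it was 0.55 (adjusted p = 1), and with values raised to the 25th percentile it was 0.18, so its size rests on the node of mouse 3.

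The coreceptor genes overlapped between lymph node and other metastases. The brighter Cd4 probe set was at 14.2 and 8.55 in the lymph node metastases of mice 3 and 4. In the other metastases it lay between 1 and 9.33 (subcutaneous, mouse 3). Its log2 difference was 2.36 with an interval of −0.28 to 4.99 (adjusted p = 0.613). The dimmer Cd4 probe set was at 1 in 13 of 16 tumors, at 2.14 in the lymph node metastasis of mouse 4 and at 4.71 (mouse 5) and 4.14 (mouse 6) in a pair of primary tumors. Cd8b1, the second chain of the CD8 heterodimer, was at 11.0 and 11.3 in the lymph node metastases of mice 4 and 3. It lay between 5.53 and 15.1 in the other metastases (log2 difference 0.40, limma, adjusted p = 0.809). The brighter Cd8a probe set lay at 79.7 (mouse 4) and 54.2 (mouse 3) in the lymph node metastases and between 50.3 and 70.5 in the other metastases. Its log2 difference was 0.11 (interval −0.32 to 0.53, limma, adjusted p = 0.890). Cd8b1, the second chain of the CD8 heterodimer, was at 11.0 and 11.3 in the lymph node metastases of mice 4 and 3 and between 5.53 and 15.1 in the other metastases (log2 difference 0.40, adjusted p = 0.809). That interval, of the brighter Cd8a probe set, is the narrowest of the T cell markers and reaches 0.53 log2 units upward. For Cd8a the narrow interval holds at this probe set only. The dimmer Cd8a probe set, at 1 to 7.49 over the 16 tumors, had a log2 difference of 0.27 (interval −0.89 to 1.43, limma, adjusted p = 0.899).

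Of the B cell genes, Cd79a but not Cd79b lay higher in both lymph node metastases than in every other metastasis. Cd79a was at 176 in the lymph node metastasis of mouse 3 and 124 in that of mouse 4. In the other metastases it reached 108 in the subcutaneous tumor of mouse 3 and 104 in the pleural nodule of mouse 4, and it was lowest, at 62.5, in the liver metastasis of mouse 2. The log2 difference was 0.75 (SE 0.23, interval 0.23 to 1.26, limma, adjusted p = 0.491). Cd79b was at 77.3 and 71.2 in the lymph node metastases of mice 4 and 3, within the 54.1 to 94.2 of the other metastases. Its log2 difference was −0.05 with an interval of −0.54 to 0.44 (adjusted p = 0.966).

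For lymph node against other metastases, 0 of the 11 marker probe sets were called in limma (adjusted p under 0.05), against 0.0442% of all probe sets. Before adjustment, 4 were higher at p under 0.05 (Cd2, Cd3d, the dimmer Cd4 probe set and Cd79a), as were 3.86% of all probe sets, and 0 were lower, as were 4.76%. The count of 4 became 1 without the lymph node metastasis of mouse 3, without mouse 3 or with dim probe sets left out, and 2 with values raised to the 25th percentile. The entry of the dimmer Cd4 probe set rests on 1 tumor, the lymph node metastasis of mouse 4 (2.14). Both lymph node metastases lay above all 7 other metastases for Cd3d and Cd79a, 2 of 11, against 4.37% of all probe sets. They lay below all 7 for 0 of 11, against 4.14%. The median log2 difference was 0.47 over the 7 T cell genes, each at its brighter probe set, and 0.35 over the 2 B cell genes, against −0.03 over all probe sets. All 7 T cell genes had a difference above 0, where 46.5% of all probe sets did, but the sign of Cd3e, Cd3g and Cd8a turned when single tumors were left out.

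Within mouse 3, the lymph node metastasis minus the mean of the subcutaneous and heart metastases had a median log2 difference of 1.21 over the T cell genes and 0.47 over the B cell genes. Within mouse 4, set against the pleural nodule alone, the medians were 0.69 and −0.02. Cd3d was higher in the lymph node metastasis by 3.77 log2 units in mouse 3, a value set by the floor since both its other metastases were at 1, and by 1.21 in mouse 4. Cd2 was higher by 2.71 and 0.96. Cd79a was higher by 0.92 in mouse 3 and by 0.25 in mouse 4, while Cd79b differed by 0.02 and −0.29.

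**Figure D2:**
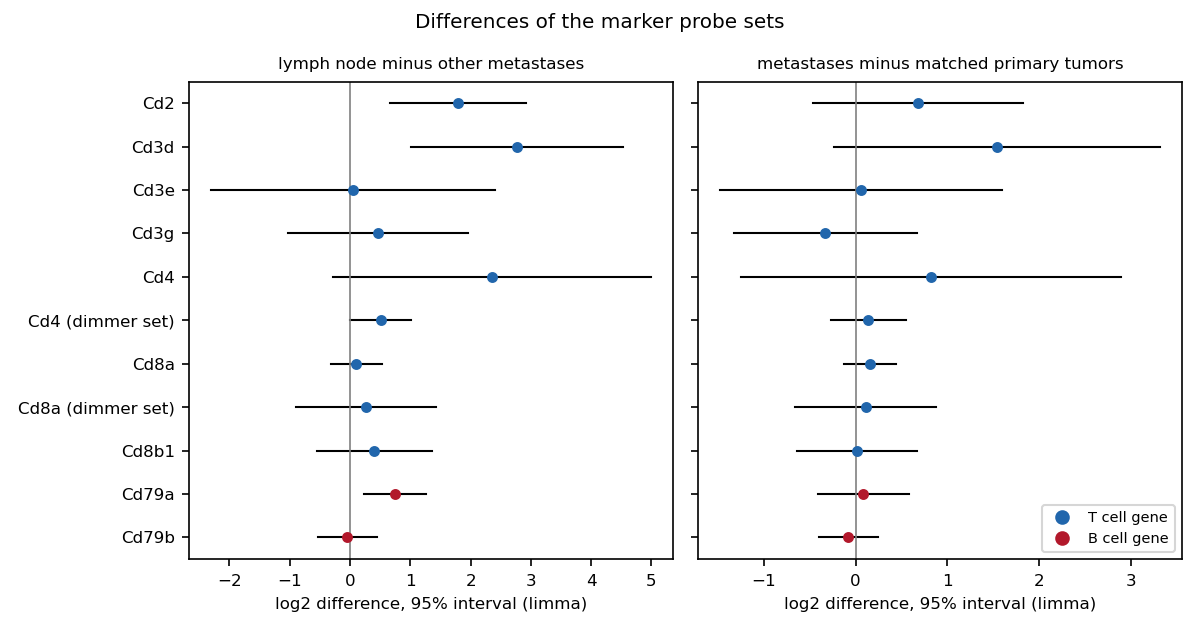
Log2 differences of the 11 probe sets with 95% limma intervals, for lymph node minus other metastases and for metastases minus matched primary tumors. In the first panel the intervals of Cd2, Cd3d, the dimmer Cd4 probe set and Cd79a lie above 0, and in the second panel every interval includes 0.

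To contrast T with B cell genes, each gene's log2 value was set relative to its mean over the 16 tumors and averaged over the 7 T cell genes and over the 2 B cell genes. The T cell level was highest in the lymph node metastases of mouse 3 (1.16) and mouse 4 (0.79). The liver metastasis of mouse 1 (0.76) came next by this mean. Cd2, Cd3d and Cd4 weighed most in the level of both lymph node metastases. Their probe sets were dim, with means of 10.4, 3.32 and 4.41 over the 16 tumors, under the 25th percentile (24.3). By the median over the 7 genes the lymph node metastases were again highest (1.18 and 0.61), followed by the liver metastasis of mouse 2 (0.50) and the inguinal tumor of mouse 1 (0.46). By summed intensity, in which Cd8a and Cd3g weigh most, the lymph node metastasis of mouse 3 (172.5) lay below the primary tumors of mouse 4 (182) and mouse 2 (176). The mean log2 level averaged over the other metastases was 0.04 ± 0.47 (SD, n = 7), and over the primary tumors it was −0.32 ± 0.37 (SD, n = 7). The B cell level was 0.32 and 0.13 in the lymph node metastases of mice 3 and 4, against −0.20 ± 0.22 in the other metastases and 0.14 ± 0.35 in the primary tumors. Thus the primary tumors of mouse 6 (0.59) and mouse 5 (0.55) had the highest B cell level, above both lymph node metastases. The difference of T and B level was 0.84 and 0.66 in the lymph node metastases of mice 3 and 4. It was 0.97 in the inguinal and 0.91 in the liver metastasis of mouse 1 and 0.65 in the liver metastasis of mouse 2, so the lymph node metastases did not stand apart by this balance. The primary tumors of mouse 6 (−1.49) and mouse 5 (−1.25) lay at the other end.

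**Figure D3:**
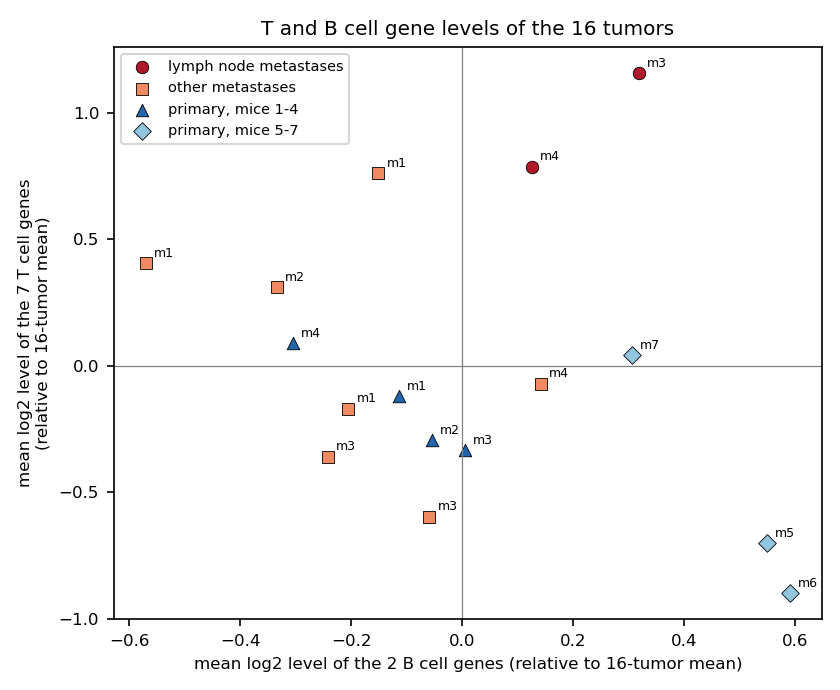
Mean log2 level of the 7 T cell genes against that of the 2 B cell genes in the 16 tumors, each relative to the mean over all tumors, with the mouse number beside each point. The lymph node metastases of mice 3 and 4 have the highest T cell levels (1.16 and 0.79), in which the dim probe sets of Cd2, Cd3d and Cd4 weigh most. The primary tumors of mice 6 and 5 have the highest B cell levels (0.59 and 0.55).

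The markers were only weakly correlated with each other across tumors. Over the 16 tumors, the correlation (Pearson's r of log2 values) between pairs of T cell genes had a median of 0.13 over 21 pairs and ranged from −0.46 (Cd3e with Cd8b1) to 0.52 (Cd3d with Cd4). The 14 pairs of a T and a B cell gene had a median of −0.09 and a lowest value of −0.60 for Cd3g with Cd79a. Cd79a and Cd79b had a correlation of 0.50. The points share mice and arrays, and most T cell probe sets are near the lower end of the scale, so these values are given as a description.

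Against their matched primary tumors, the metastases as a group showed no called difference in any marker. None of the 11 probe sets was called in limma (0 at an adjusted p under 0.05, against 0.354% of all probe sets). Before adjustment, 0 were higher at p under 0.05, against 4.28% of all probe sets, and 0 were lower, against 7.1%. The median log2 difference was 0.16 over the T cell genes and 0.00 over the B cell genes, against −0.02 over all probe sets. Cd3d had the widest difference, 1.54 with an interval of −0.23 to 3.31 (adjusted p = 0.518), and was above its primary tumor in 5 of 9 metastases and equal to it at 1 in the other 4. Cd2 was above its primary tumor in 8 of 9 metastases (log2 difference 0.68, interval −0.46 to 1.82, limma, adjusted p = 0.681), the pleural nodule of mouse 4 being the exception. In the liver and inguinal metastases of mouse 1 the log2 ratio was only 0.030 and 0.017. The share of all probe sets with such a count was not taken. Cd3g was higher in 5 and lower in 4 metastases, with log2 ratios from −2.40 (subcutaneous, mouse 3) to 0.99 (inguinal, mouse 1). The narrowest intervals were those of the brighter Cd8a probe set (−0.12 to 0.44) and Cd79b (−0.40 to 0.24).

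Set apart by site, the lymph node metastases minus their matched primary tumors again had 0 of 11 probe sets at an adjusted p under 0.05 (0.084% of all probe sets), as had the other metastases (0.19%). Before adjustment, the lymph node metastases had 4 probe sets higher at p under 0.05 (Cd2, Cd3d, the dimmer Cd4 probe set and Cd79a, against 5.05% of all) and 0 lower (8.06% of all). The other metastases had 0 higher (3.77% of all) and 0 lower (6.5% of all). Both comparisons use the same 4 primary tumors. Cd3d was 3.70 higher on the log2 scale in lymph node metastases (SE 0.81, adjusted p = 0.170), a value set by the floor since all primary tumors were at 1, and 0.93 higher in other metastases (SE 0.57, adjusted p = 0.647). With all 16 tumors and the mouse as a random block, the lymph node difference of Cd3d was 3.76 and passed (adjusted p = 0.0293). Cd2 was 2.08 higher in lymph node metastases (SE 0.52, adjusted p = 0.231) and 0.29 higher in other metastases (SE 0.36, adjusted p = 0.856). Without the lymph node metastasis of mouse 4, the first of these was 3.20 and passed (adjusted p = 0.0244), and without that of mouse 3 it was 0.90 (adjusted p = 0.818). Cd79a differed by 0.67 (SE 0.24, adjusted p = 0.314) and by −0.08 (SE 0.17, adjusted p = 0.924). The log2 ratio of Cd79a to the matched primary tumor was 0.96 in the node of mouse 3 and 0.67 in the node of mouse 4, and it was highest among the other metastases in the pleural nodule of mouse 4 (0.42).

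The 3 primary tumors of mice 5 to 7 entered no contrast, and they lay above the 4 matched primary tumors in both B cell genes. Cd79a reached 177 in mouse 5, 165 in mouse 6 and 126 in mouse 7, against 77.9 to 91.1 among those of mice 1 to 4. Cd79b was at 97.5, 111 and 98.1, against 67.9 to 90.0. For both genes the ranges do not overlap, and the Cd79a value of mouse 5 was as high as that of the lymph node metastasis of mouse 3. This split was seen in the data and was not tested. The share of all probe sets with the same split was not counted, so the split is not read as particular to B cell genes. Aph1a, picked for its likeness to the B cell markers, also had it, at 495 to 726.5 in mice 5 to 7 against 275 to 369 in mice 1 to 4. Cd3d was at 1 in all of these primary tumors, and Cd3g was at 6.75, 20.0 and 35.9 in mice 5, 6 and 7 against 36.1 to 90.3 in mice 1 to 4.

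The immunoglobulin genes Ighm and Jchain, products of the B lineage, had larger log2 differences between sites than Cd79a. Of 8 immunoglobulin and plasma cell genes, 7 had a difference above 0 between lymph node and other metastases (median 0.25). Of these, 3 (Ighm, Jchain and Igha) were at an unadjusted p under 0.05 and 0 at an adjusted p under 0.05. The brightest genes of the list, Sdc1 and Xbp1, had log2 differences of −0.52 and 0.21. The plasma cell genes Prdm1 (0.02), Derl3 (0.27) and Tnfrsf17 (0.22), named after their values were seen, also differed little. Ighm, the heavy chain of IgM, had an intensity of 3097 and 2875 in the lymph node metastases of mice 4 and 3. In the other metastases it was 784 in the pleural nodule of mouse 4 and 48.5 to 84.2 in the remaining 6, and in the primary tumors it was 54.3 to 625. The log2 difference between lymph node and other metastases was 4.41 (SE 0.84, limma, adjusted p = 0.218). Jchain, which joins the units of secreted IgM and IgA, was at 1125 and 582 in the lymph node metastases of mice 3 and 4, against 22.5 to 139 in the other metastases (log2 difference 4.42, SE 0.69, adjusted p = 0.125). Without the mouse as a block the Jchain difference was 4.64 and passed (adjusted p = 0.0245). With 1 tumor or mouse left out, the difference lay between 2.83 (without the node of mouse 3) and 5.91 (without mouse 4), with adjusted p between 0.00348 and 0.991. Jchain, like Ptprc below, was chosen after its values were seen.

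Igha, the heavy chain of IgA, followed another pattern. It was at 1534 in the lymph node metastasis of mouse 3 but at 79.7 in that of mouse 4, against 20.6 to 68.2 in the other metastases. All 7 primary tumors (82.2 to 1968) were above all 7 other metastases. The share of all probe sets with such a split was not counted. Other metastases were lower than matched primary tumors by −5.36 log2 units for Igha (SE 0.78, adjusted p = 0.0463) and by −3.52 for Jchain (SE 0.51, adjusted p = 0.0456), both past the threshold, and 7 of 7 other metastases were below their own primary tumor for both genes. The share of all probe sets below the own primary tumor in 7 of 7 was not counted either. Both calls are close to the threshold. With 1 tumor or mouse left out in turn, the differences lay between −6.07 and −4.93 for Igha and between −4.04 and −3.19 for Jchain, with adjusted p between 0.00666 and 0.466 for Igha and between 0.0120 and 0.466 for Jchain. The Igha probe set is of a type whose probes can also match other transcripts.

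**Figure D4:**
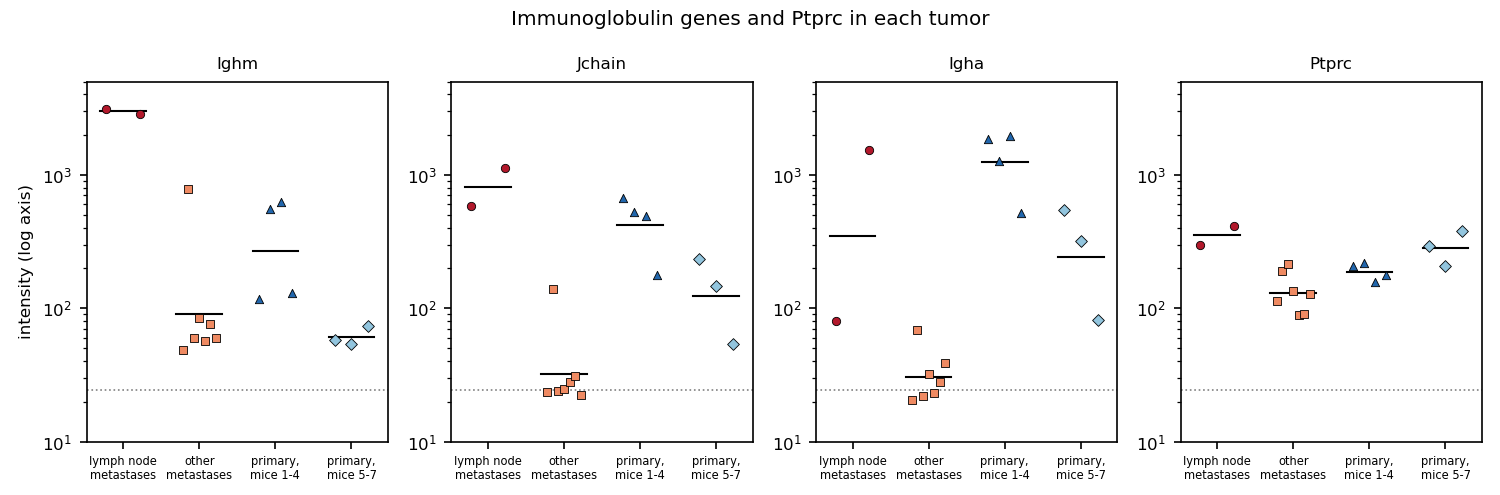
Intensity of Ighm, Jchain, Igha and Ptprc in each tumor on a log axis, with groups, bars and dotted line as in the plot of the 9 markers. Ighm is at 3097 and 2875 in the lymph node metastases, and Igha and Jchain are lower in other metastases than in the matched primary tumors.

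Other genes of the same cell types were counted from textbook lists, each gene at its brightest probe set, and 0 genes of the T cell, B cell, natural killer cell, lymph node and leukocyte lists passed an adjusted p of 0.05 between lymph node and other metastases. Of 24 further T cell genes, 12 had a difference above 0 and 12 below it, with a median of 0.02 log2 units, and at an unadjusted p under 0.05 there were 0 above and 2 below, Lef1 and Trat1, named after their values were seen. The 4 of highest mean had log2 differences of −0.41 (Icos), 0.43 (Thy1), 0.18 (Prkcq) and −0.11 (Cd96). The T cell costimulator Icos lay at 75.7 and 128 in the lymph node metastases against 99.9 to 174 in the other metastases, and the T cell kinase Prkcq at 123 and 131 against 83.9 to 122. Thy1, found on mouse T cells and also on fibroblasts, was above its matched primary tumor in 9 of 9 metastases (log2 difference 1.08, limma, adjusted p = 0.154). How many of all probe sets had 9 of 9 was not counted. Of 20 further B cell genes, 15 had a difference above 0 (median 0.12), 4 of them at an unadjusted p under 0.05. These were Pou2f2, Ebf1, Pou2af1 and Cd72, named after their values were seen. The 4 genes of highest mean in this list had log2 differences of −0.19 (Cd24a), −0.93 (Ly6d), −0.00 (Blk) and 0.39 (Blnk). The adaptor Blnk lay at 114 and 123 in the lymph node metastases of mice 3 and 4, against 70.2 to 112 in the other metastases (adjusted p = 0.648). Of 14 genes of antigen receptor signaling, some of which are also in these lists, 8 had a difference above 0 (median 0.03). Over all genes the median was −0.02, and 5764 of 12393 genes had a difference above 0, with 431 higher and 485 lower at an unadjusted p under 0.05. The counts of every list are to be read against these.

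Genes of lymph node tissue and of leukocytes in general were examined beside the markers. Of 11 genes of lymphocyte homing and node stroma, 9 had a difference above 0 (median 0.46), 1 of them, Cxcl13, at an unadjusted p under 0.05. Cxcl13, the chemokine of B cell follicles, was at 305 and 309 in the lymph node metastases of mice 3 and 4, against 175 to 202 in the other metastases and 153 to 224 in the primary tumors (log2 difference 0.60, SE 0.15, adjusted p = 0.433). The median level over this list, with each gene's log2 value set relative to its mean over the 16 tumors, was 0.50 and 0.20 in the lymph node metastases of mice 4 and 3, against −0.25 to 0.16 in the other metastases and −0.30 to 0.27 in the primary tumors. Of 14 pan-leukocyte genes, 11 had a difference above 0 (median 0.39). At an unadjusted p under 0.05 there were 2 above and 1 below, Ikzf1 (−1.30), named after its values were seen. The 4 of highest mean had log2 differences of 0.55 (Lcp1), 0.39 (Arhgdib), 0.40 (Laptm5) and 0.96 (Cytip). Ptprc, which encodes CD45 of all leukocytes, was at 297 and 417 in the lymph node metastases against 88.9 to 213 in the other metastases (log2 difference 1.15, SE 0.32, limma, adjusted p = 0.449). Of 15 natural killer and cytotoxic genes 12 had a difference above 0 (median 0.29), and of 14 macrophage genes 12 did (median 0.29). Their part in the marker differences was not tested. Markers of the labelled sites were also read. Hepatocyte genes had their highest median levels in the liver metastases of mouse 1 (3.12) and mouse 2 (1.79), and the inguinal metastasis of mouse 1 came next (1.63). The cardiac muscle genes Tnnt2 and Actc1 were at 1269 and 1052 in the heart metastasis of mouse 3, against at most 102 and 50.7 in the other 15 tumors. The cardiac genes Myl7 and Myh6, named after their values were seen, were not raised there (38.8 and 6.55). The median level of the 9 heart and skeletal muscle genes was 0.16 there, below the 0.74 of the subcutaneous metastasis of mouse 3. The median level of 3 mesothelial genes was 1.29 and 0.35 in the lymph node metastases of mice 3 and 4, against −0.86 to 0.33 in the other metastases, with the pleural nodule at 0.18, and −0.50 to 0.72 in the primary tumors. Both lymph node metastases thus lay above the other metastases by this list too, and its part in the marker differences was not tested. Skin keratinocyte genes were at 0.01 in the body wall tumor of mouse 1, inside the −0.41 to 0.17 of the other metastases. The median level of 9 lung epithelial genes was −0.27 and 0.01 in the lymph node metastases of mice 3 and 4, inside the −3.07 (heart, mouse 3) to 0.50 of the other metastases, and −0.06 to 1.15 in the primary tumors.

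The genes whose profile was most like the mean log2 level of the T cell markers over the 16 tumors were Vmn1r25 and Zfp59 (Pearson's r = 0.82 for both), and the 10 most alike of 10184 genes held no gene of the T cell, B cell, immunoglobulin or natural killer lists. For the B cell markers they were Cab39l (r = 0.90) and Aph1a (r = 0.89), again with no gene of those lists among the 10. Only genes whose mean intensity was above the 25th percentile of all values were candidates, so dim genes of those lists could not appear. Of the further T cell genes 14 of 24 were above it, of the further B cell genes 15 of 20 and of the natural killer genes 11 of 15. Cab39l was highest in the unmatched primary tumors (297 in mouse 6, 255 in mouse 5 and 241 in mouse 7), against 122 to 179 in the other 13 tumors. It was picked by its likeness to the B cell markers, so a shared pattern was built in. In the lymph node metastasis of mouse 3, where Cd79a was also high (176), Cab39l was at 177.5.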

How the data were processed

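Each of 16 tumors was hybridized to 1 Affymetrix Mouse 430A 2.0 array. The authors computed the deposited intensity values in dChip on a linear scale, by its model of perfect match minus mismatch signal, with invariant set normalization between arrays. Of 22690 rows, 64 controls were left out. Probe sets were named from the platform annotation, and 20380 carried 1 symbol, 691 several and 1555 none. Values under 1 were raised to 1, and log2 values were fitted in limma 3.58.1 (R 4.3.3) over the 13 tumors of mice 1 to 4 with the mouse as a block, two-sided, with Benjamini-Hochberg adjustment over 22626 probe sets. Pairing comes from the labels, since metastasis and primary tumor share a mouse. Deviations of a metastasis and its own primary tumor correlated at −0.00 to 0.40, highest for the own primary tumor in 6 of 9. Metastases of 1 mouse are not independent animals, so p-values rest on tumors.

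Named were all marker probe sets, genes among the 4 of highest mean in each list, and genes among the 10 most alike to each profile. Jchain, Ptprc and the genes so marked in the text were named after their values were seen. The markers and lists were chosen with earlier results of these data known. The fit was tested on simulated data. The ETS core, the E-box and the settings for the comparisons split by site were added after seeing the data. Protein sequences were not used here.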

Additional observations from a re-analysis of the deposited data

Results flagged for a closer look

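In groups of 7 tumors, a single tumor stood apart from the rest by Dixon's ratio in 6 of 34 groups tested. For normally distributed values chance flags about 1 in 20. For the markers the flagged values were Cd3e in the primary tumor of mouse 3 (22.3, the next value being 6.59) and Cd4 in the primary tumor of mouse 1 (8.415, the next being 2.56), both under the 25th percentile of all values. The pleural nodule of mouse 4 stood apart among the other metastases for 3 immunoglobulin genes, with 784 for Ighm (next 84.2), 139 for Jchain (next 30.8) and 68.2 for Igha (next 38.8). Thy1 was at 345 in the subcutaneous metastasis of mouse 3 (next 166). The ratio was taken on linear intensities, and groups with all values at the floor could not be flagged. The count of 6 is therefore not read as more than chance.

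In the primary tumors of mice 5 to 7, which enter no contrast, the lowest Cd79a value was 126, above the highest of the matched primary tumors (91.1), and the lowest Cd79b value was 97.5, above 90.0. These differences were not tested, and the share of all probe sets with such a split was not counted.

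The log2 ratios of Jchain to the matched primary tumor had opposite signs by site. They were 0.15 and 2.67 in the lymph node metastases of mice 4 and 3 (mean 1.41), where the fitted difference of 0.90 did not pass (limma, adjusted p = 0.624). All 7 of 7 other metastases were below their primary tumors, by a mean of −3.58. How many of all probe sets had such opposite signs was not counted. The contrast of lymph node and other metastases, which tests this difference, gave 4.42 (limma, adjusted p = 0.125).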

How the results depend on the processing

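The count of called marker probe sets stayed at 0 in the comparison of all metastases with matched primary tumors, and of the other metastases with theirs, under every setting. For lymph node against other metastases it became 1 (Cd3d, 1.25, adjusted p = 0.00203) with a floor at the 10th percentile, and for lymph node metastases against primary tumors it became 1 (Cd3d) with that floor (1.29, adjusted p = 0.00235) and 1 with the random block (3.76, adjusted p = 0.0293). With 1 tumor or mouse left out it lay between 0 and 1 in both, the 1 being Cd2 without the lymph node metastasis of mouse 4 or without mouse 4. At the 25th percentile as floor, Cd3d, Cd4 and Cd8b1 had no value, all tumors being at the floor. Between lymph node and other metastases the T cell median lay between 0.24 and 0.96 with 1 tumor or mouse left out and was 0 with the floor at the 25th percentile, and the B cell median lay between 0.22 and 0.54. The cause of these changes was not tested.

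Cd3e, near 0, turned its sign between lymph node and other metastases with the random block (−0.072), with the floors at the 10th (−0.12) and 25th percentile (−0.00024), with quantile normalization (−0.025), and with no replicate block or the 9 metastases alone (−0.17 in both). Without the block, which pairs tumors of a mouse, or in the metastases alone, Cd79b was 0.0036. With tumors left out, Cd3e lay between −0.68 and 0.32, Cd3g between −0.25 and 0.96, Cd79b between −0.13 and 0.12 and Cd8a between −0.072 and 0.31. For metastases against primary tumors, Cd3g was 0.16 with the random block, and Cd79b lay between −0.22 and 0.026 with tumors left out. For other metastases against primary tumors, Cd2 was −0.0079 with the floor at the 25th percentile and lay between −0.0038 and 0.65 with tumors left out, and Cd79a lay between −0.21 and 0.015.

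Igha and Jchain, lower in other metastases than in primary tumors, missed the threshold with the floor at the 10th percentile (adjusted p = 0.0685 and 0.0663), at the 25th (0.0783 for both) and with quantile normalization (0.0553 for both), at like differences. Jchain between lymph node and other metastases passed with the random block (4.54, adjusted p = 0.0394) and with no block. Thy1 in metastases passed with the random block (1.13, adjusted p = 0.0481) and with the methods' t-test (1.14, adjusted p = 0.0200), which called 0 markers at its own unadjusted threshold, against 2208 of all 22626 probe sets, and 0 after Benjamini-Hochberg adjustment, against 884.

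Of all 22626 probe sets, lymph node against other metastases had 10 calls (43 for other metastases, 19 for lymph node metastases and 80 for all metastases against primary tumors). Over the settings these counts ranged from 2 to 152, 0 to 235, 2 to 134 and 0 to 884. With no replicate block, 35 and 43 probe sets were called where the paired fits called 10 and 80. The number of arrays limits the precision, with 2 lymph node metastases.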
